A study of Mus musculus with 8 samples.

Results

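The suppressor of cytokine signalling (SOCS) family and Cish were taken as the 8 genes of the deposited table with the symbols Socs1 to Socs7 and Cish, out of 18901 genes in all, and all 8 were found. RNA was sequenced from whole cheek skin of 8 mice, 4 of the genotype TBX20fl/fl;K14-Cre (Cre mice) and 4 of the genotype TBX20fl/fl (control mice). By their sample labels all 8 carried floxed Tbx20 alleles, although the design text of the series calls the controls wild type. All were female and 7 weeks old, and all received 10 µg of B-type natriuretic peptide (BNP) into the left cheek, were recorded for 30 min and were euthanised 5 h after the recording. In Cre mice the recombinase is driven by the keratin 14 promoter and removes exons of Tbx20 in keratinocytes, while the dermis, fat, muscle and immune cells in the same skin keep the gene, and the control littermates have no Cre. The cheek skin of both genotypes was exposed to BNP, so a change caused by BNP itself cannot be read from these samples.

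SOCS proteins are feedback brakes of cytokine signalling. A cytokine receptor activates Janus kinases (JAKs), these phosphorylate STAT transcription factors, and STATs in turn induce Cish, Socs1, Socs2 and Socs3, whose products bind phosphorylated receptors or kinases through an SH2 domain and recruit a ubiquitin ligase through the SOCS box. SOCS1 is best known for restraining interferon signalling, SOCS3 for restraining the IL-6 and G-CSF receptors, and CIS (the product of Cish) and SOCS2 for restraining STAT5 signalling by growth hormone and related cytokines. In skin, SOCS1 and SOCS3 limit the responses of keratinocytes to gamma interferon and to IL-6. SOCS4 to SOCS7 have been linked more to receptor tyrosine kinases, SOCS4 and SOCS5 to the EGF receptor and SOCS6 and SOCS7 to insulin receptor signalling.

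Promoter sequences in RefSeq (GRCm38.p6), running from 250 bases before to 50 bases after a transcription start, were matched for 4 of the 8 genes: Cish, Socs1, Socs3 and Socs4. They are shown because the cytokine-inducible members differ in the letters they carry there. Capitals mark matches to the STAT motif TTCNNNGAA or the interferon regulatory factor (IRF) motif (GAAA, any 2 bases, GAAA), both searched on both strands, and each sequence is written 5′ to 3′ along its gene.
Socs1: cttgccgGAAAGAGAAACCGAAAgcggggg
Socs3: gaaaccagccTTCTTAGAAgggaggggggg
Cish: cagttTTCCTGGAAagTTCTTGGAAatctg
The Socs1 sequence lies at chr16:10785597-10785626 on the minus strand and holds 2 overlapping IRF matches, which begin 83 and 77 bases before the start. The Socs3 sequence lies at chr11:117969501-117969530 on the minus strand and holds 1 STAT match. The match begins 154 bases before the start that RefSeq gives for this promoter. The RefSeq span of the whole gene reaches to 117970336, so by that model the match lies inside the gene. The Cish sequence lies at chr9:107296654-107296683 on the plus strand and holds 2 STAT matches, at the 1st and the 12th base of the transcript. Among 32851 promoters of the same length, 8.3% held the STAT motif and 0.457% held at least 2 matches, while 3.44% held the IRF motif and 0.225% held at least 2. The Socs4 promoter had neither motif. The T-box letters AGGTGTGA, which occur in 1.28% of the promoters, were in none of the 4 windows. The paper's TBX20 consensus is the shorter AGGTGTG, which was not searched here. A match is a description of letters and does not show binding.

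Deposited counts summed to 19260856 to 19880654 in Cre mice and 16056282 to 19617762 in control mice, and 3 counts correspond to 0.151 to 0.187 CPM (counts scaled to the total of the library). For Tbx20 the libraries of Cre mice held 0 to 2 counts and those of control mice 0 to 3, and at this depth the deletion could not be seen in whole skin. Control replicate 2 stood apart from the other 7 mice, since its long transcripts had low counts and its short transcripts high counts, and values without it are given beside the results that it moves most. Counts were compared with edgeR after TMM scaling, which sets the libraries to a common level through the bulk of the genes, and a gene was called at a Benjamini-Hochberg adjusted p under 0.05 over the 17124 genes tested. No gene was called (0.0%, smallest adjusted p 0.498). At an unadjusted p under 0.05, 8.36% of genes passed.

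All 8 genes were expressed in every mouse, with 112 counts or more. Levels are given as FPKM, read counts scaled by transcript length and by library, which is the scale on which genes can be set beside each other. In control mice the mean FPKM was highest for Socs3, at 25.4 ± 6.9 (SD, n = 4), followed by Socs2 at 15.0 ± 3.64 (SD, n = 4). In Cre mice Socs2 came first, at 21.8 ± 1.41 (SD, n = 4), and Socs3 second, at 17.8 ± 7.37 (SD, n = 4). Socs3 was above Socs2 in 4 of 4 control mice, with ranges that did not overlap, and in 2 of 4 Cre mice Socs2 was above Socs3, with ranges that did. No other pair of neighbours in the order, in either genotype, had ranges that were separate. After Socs2 and Socs3 came Socs6, at 11.0 and 10.7 in Cre and control mice, then Socs1 and Socs5 between 7.99 and 10.6, and Cish and Socs4 between 5.31 and 6.91. Socs7 was last in both genotypes, at 5.76 and 4.27. The summed FPKM of the 8 genes was 79.0 to 103 in Cre mice and 69.0 to 107 in control mice, which overlap.

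**Figure D1:**
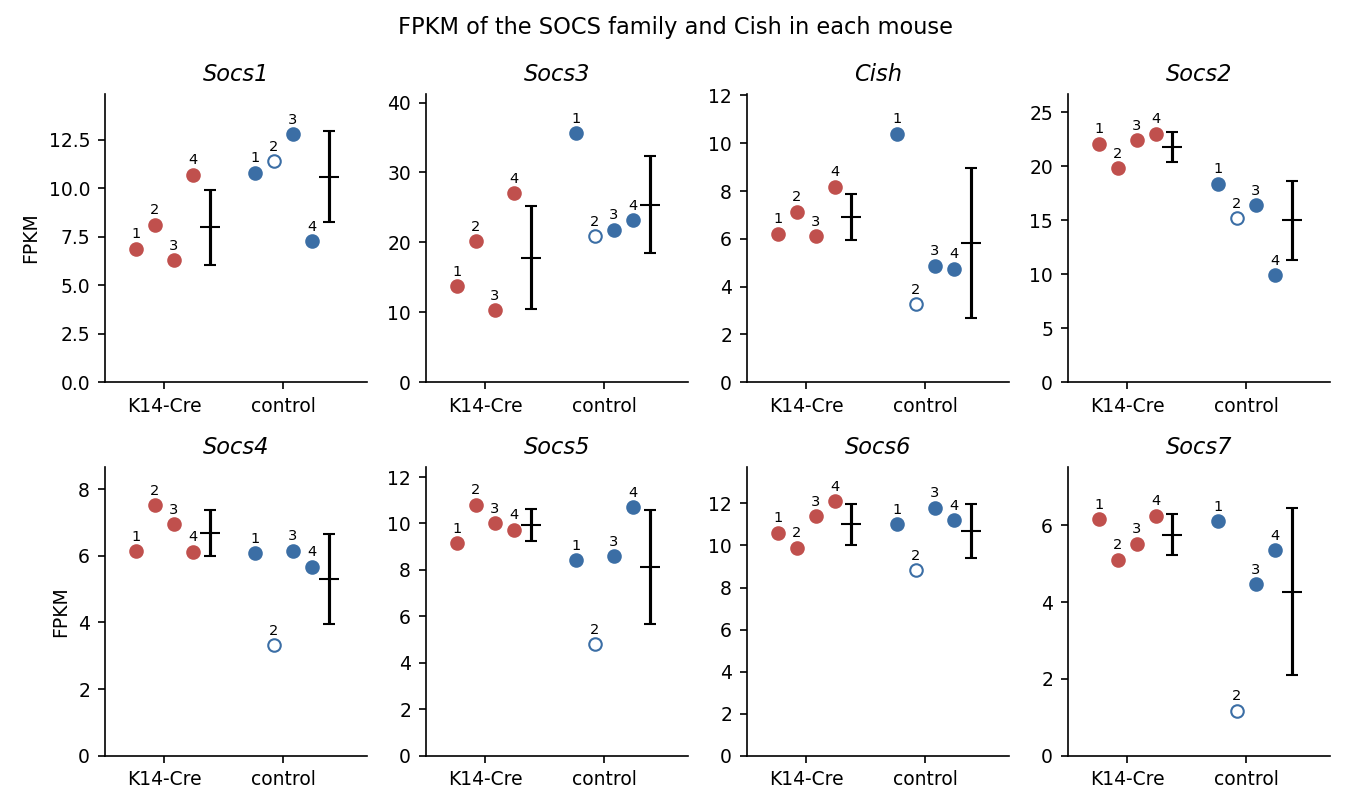
FPKM (vertical axes, each from 0) of the 8 genes in each mouse, Cre in red and control in blue, with the replicate number over each point and the mean with its SD in black (n = 4). The open circle is control replicate 2. Socs2 alone has groups that do not overlap, and Socs3 and Cish are highest in control replicate 1, at 35.6 and 10.4.

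None of the 8 genes was called between the genotypes, and 1 of the 8, Socs3, had an unadjusted p under 0.05, against the 8.36% of all genes. The median log2 fold change of the 8 genes, Cre over control, was 0.14, against 0.026 for all genes tested. Without control replicate 2 these medians were 0.03 and 0.013, and Socs2 in place of Socs3 had an unadjusted p under 0.05. The count was 0 without Cre replicate 1, 2 or 3. It was 2, both below 0, without Cre replicate 4 and also without control replicate 4. Of all genes 698 of 17022 and 1683 of 17012 had such a p below 0 in these settings. The fold changes of Socs1, Socs3 and Socs6 were below 0 and those of the other 5 were above 0. The cytokine-inducible and the other members are given in turn.

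Socs3, which blocks JAK kinase activity at the IL-6 receptor subunit gp130, had an FPKM of 13.7, 20.2, 10.3 and 27.0 in Cre replicates 1 to 4. In control replicates 1 to 4 it was 35.6, 20.9, 21.8 and 23.2. Cre replicate 4 lay above 3 of the 4 control mice, and the other 3 Cre mice lay below all control mice. The exact permutation test over the 70 assignments of the mice gave a two-sided p of 0.2, where the smallest possible is 0.0286. In edgeR's test the log2 fold change was -0.67 (SE 0.292), with an interval of 95% from -1.33 to -0.01, an unadjusted p of 0.0469 and an adjusted p of 0.498 after Benjamini-Hochberg adjustment. The fold change was below 0 in 19 of 19 settings tried, between -0.93 and -0.48, and the unadjusted p was under 0.05 in 12 of them. Control replicate 2 was close to the other control mice for this gene, 1.1 times their level in CPM, and without it the log2 fold change was -0.65. Socs3 also had the widest spread of the 8 genes among Cre mice, with the highest FPKM 2.62 times the lowest.

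Neutrophil markers had values on the same side as Socs3. Their summed FPKM over 9 genes was 213, 322, 269.6 and 412 in Cre replicates 1 to 4. In control replicates 1 to 4 it was 432, 1138, 492 and 1094, without overlap. The highest means in Cre and control mice were 114 and 168 for Il1r2, 83.1 and 296 for S100a9, and 75.5 and 274 for S100a8. The paper treats S100a8 and S100a9 as markers of skin damage. Ly6g had 2 to 9 counts per mouse, and the log2 fold change of Mmp9 was -0.0. In TMM-scaled CPM 3 of the 9 had groups that did not overlap, all lower in Cre mice, as had 3.27% of all genes. Of the 9 markers 7 had an unadjusted p under 0.05, all with values below 0, 0 were called, the median log2 fold change was -1.41, and no marker was at 0 in every mouse. Among Cre mice replicate 4 had the most Socs3 and the most neutrophil markers, 412, and replicate 2 was next in both, while among control mice replicate 1 had the most Socs3 and the lowest summed markers, 432. Of the 8 macrophage and monocyte markers 3 had an unadjusted p under 0.05, with summed FPKM of 946 to 1433 in Cre and 1122 to 2233 in control mice, which overlap. That count was 1 without control replicate 2, the mouse with 2233, and also 1 without control replicate 3, Cre replicate 1 or Cre replicate 2. Over all genes 5.91% had such a p on this side. The part of these cells in the Socs3 values was not tested, and in whole skin fewer cells of a type and less RNA per cell cannot be told apart.

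Socs1, which inhibits JAK kinases downstream of interferon receptors, had an FPKM of 6.88, 8.13, 6.3 and 10.7 in Cre replicates 1 to 4. The corresponding values in control replicates 1 to 4 were 10.8, 11.4, 12.8 and 7.28. The groups overlapped because control replicate 4 lay below Cre replicates 2 and 4, while the other 3 control mice lay above all Cre mice. The exact permutation test gave p = 0.143. In edgeR's test the log2 fold change was -0.60 (SE 0.265), the unadjusted p 0.0505 and the Benjamini-Hochberg adjusted p 0.498. The gene has a short transcript, 1177 bases, and control replicate 2 held 1.6 times the mean of the other control mice in CPM. Without that mouse the log2 fold change was -0.41, and with the trend of counts with transcript length removed from each mouse it was -0.18.

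Cish, whose product competes with STAT5 for receptor sites, had an FPKM of 6.22, 7.14, 6.1 and 8.18 in Cre replicates 1 to 4. Among control mice replicate 1 had 10.4, and replicates 2 to 4 had 3.27, 4.87 and 4.75. Control replicate 1 lay above all Cre mice and the other 3 lay below all of them. With all 8 mice the log2 fold change in edgeR was 0.12 (SE 0.277), with an interval from -0.51 to 0.74 and an adjusted p of 0.816 with Benjamini-Hochberg adjustment. Without control replicate 1 it was 0.49 (SE 0.166), with an unadjusted p of 0.0169 and an adjusted p of 0.353 in the same test, and without control replicate 2 it was -0.0027. Exons of 2 genes on the opposite strand, Gm17040 and Gm17041, share 261 and 479 bases with Cish, and 9.35% of the 50-base stretches of Cish transcripts are also found in other genes, so its count is uncertain where reads could have been split.

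Socs2, a regulator of growth hormone receptor signalling, was the 1 member whose FPKM groups did not overlap. Cre replicates 1 to 4 had 22.1, 19.8, 22.4 and 23.0. Control replicates 1 to 4 had 18.4, 15.2, 16.4 and 9.92. Across all genes 7.37% had FPKM groups that did not overlap, 5.45% with the Cre mice higher, so 1 of 8 is near the background. The exact permutation test gave p = 0.0286, the smallest that 4 against 4 mice allow, and 0.388 after Benjamini-Hochberg adjustment over all genes tested. That test does not use the replicate numbers. Between mice of the same number Socs2 FPKM was higher in the Cre mouse in 4 of 4 pairs, which follows from groups that do not overlap. In TMM-scaled CPM it was higher in 3 of 4 pairs. With 4 pairs a two-sided exact p cannot fall below 0.125. limma on log2(FPKM + 1) gave a difference of 0.54 (SE 0.181) and a Benjamini-Hochberg adjusted p of 0.457.

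The separation of Socs2 depended on the scale. In TMM-scaled CPM the Cre replicates had 48.6, 42.3, 49.7 and 50.4, and the control replicates had 40.8, 46.5, 37.5 and 22.5. Control replicate 2, at 46.5, then lay inside the range of the Cre mice, and 0 of the 8 genes had groups that did not overlap, against 6.92% of all genes. With that mouse left out Socs2 alone of the 8 was separate, where 7.92% of all genes were, 4.01% with the Cre mice higher. edgeR's test gave Socs2 a log2 fold change of 0.38 (SE 0.212) and a Benjamini-Hochberg adjusted p of 0.499. The same value was 0.51 without control replicate 2, 0.49 with the length trend removed and 0.20 without control replicate 4, the mouse with the least Socs2.

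Socs4 and Socs5 encode a closely related pair. Socs4 had an FPKM of 6.14, 7.53, 6.95 and 6.12 in Cre replicates 1 to 4. In the control replicates it was 6.08, 3.31, 6.16 and 5.68. Apart from replicate 2 the control values sat at or just under the lower end of the Cre mice, the groups overlapped, and the exact permutation test gave p = 0.0857. In edgeR's test Socs4 had a log2 fold change of 0.20 (SE 0.155), with an interval from -0.15 to 0.55 and a Benjamini-Hochberg adjusted p of 0.533. It was 0.12 without control replicate 2. Between mice of the same replicate number Socs4 was higher in the Cre mouse in 4 of 4 pairs, as was Socs7.

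For Socs5 the Cre replicates had 9.15, 10.8, 10.0 and 9.73 FPKM. The control replicates had 8.42, 4.8, 8.58 and 10.7. Replicate 4 of the control mice exceeded 3 of the 4 Cre mice, so the groups overlapped (exact permutation p = 0.2). The log2 fold change in edgeR was 0.16 (SE 0.157), with an interval from -0.19 to 0.52 and a Benjamini-Hochberg adjusted p of 0.575. It was 0.06 without control replicate 2 and -0.03 with the length trend removed.

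Socs6 was the most even of the 8 genes between genotypes in FPKM. Its values were 10.6, 9.89, 11.4 and 12.1 in Cre replicates 1 to 4. They were 11.0, 8.83, 11.8 and 11.2 in control replicates 1 to 4, and the exact permutation test gave p = 0.743. The edgeR log2 fold change was -0.12 (SE 0.128), with a Benjamini-Hochberg adjusted p of 0.618. Its interval of 95% ran from 0.756-fold to 1.13-fold, the narrowest of the 8 genes. Although its transcript is long, 5965 bases, Socs6 in control replicate 2 was at 1.09 times the other control mice in CPM. With the length trend removed its log2 fold change was -0.55, and it was 0.04 with scaling to the total count alone. Of the 50-base stretches of Socs6 transcripts 6.14% are also found in 2 other genes.

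Socs7, which has the longest transcript of the 8, 7079 bases, had an FPKM of 6.16, 5.11, 5.52 and 6.25 in Cre replicates 1 to 4. Among the control replicates it was 6.11, 1.17, 4.46 and 5.35. The groups overlapped (exact permutation p = 0.2), and control replicate 2 was far below the other mice. It held 0.313 times the mean of the other 3 control mice in CPM, the lowest such ratio of the 8 genes. With all mice the log2 fold change in edgeR was 0.35 (SE 0.332) and the Benjamini-Hochberg adjusted p 0.573. It was 0.08 without control replicate 2 and 0.06 with the length trend removed, so 1 mouse carried most of the difference.

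**Figure D2:**
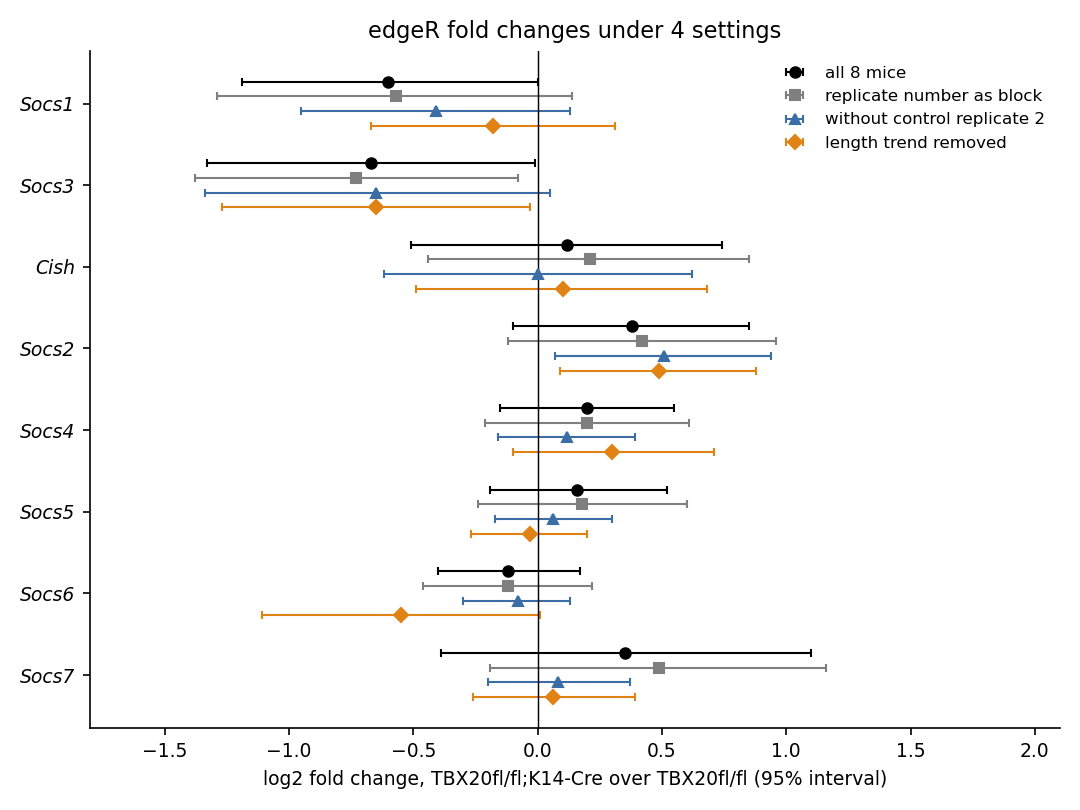
Log2 fold change of Cre over control mice in edgeR (horizontal axis) for each of the 8 genes, with its interval of 95%, under 4 settings. Socs3 lies between -0.73 and -0.65 in all 4, whereas the other 7 genes move by more when control replicate 2 is left out or the length trend is removed, among them Cish from 0.12 to -0.0027 and Socs7 from 0.35 to 0.08 without that mouse.

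Control replicate 2 differed from the other control mice along transcript length. Genes were put into 10 equal classes by length. In the class with the shortest transcripts, with a median length of 838 bases, the median difference of this mouse from the other control mice was 1.21 on the log2 CPM scale, and in the class with the longest, with a median of 7603 bases, it was -1.34. Among the 8 genes the difference ran from 0.68 for Socs1 to -1.68 for Socs7, and 6 of the 8 lay within or at the edge of the middle range of genes of their length. Socs6 lay above that range and Socs4 below it, at 0.13 and -0.36. The cause of the length trend was not tested.

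**Figure D3:**
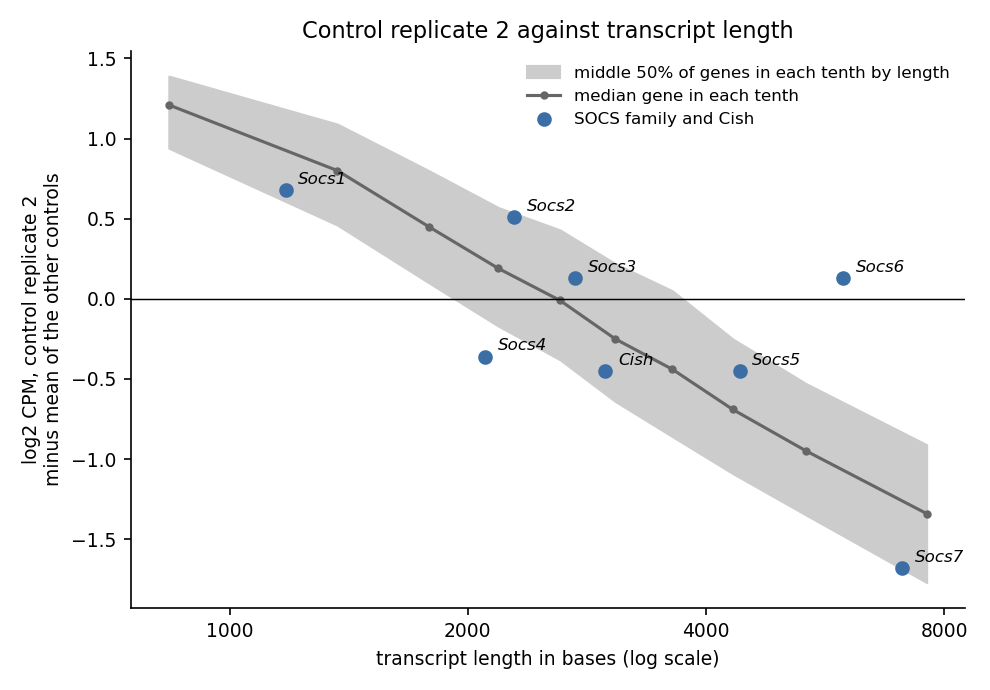
Difference in log2 CPM between control replicate 2 and the mean of the other 3 control mice (vertical axis) against transcript length in bases (log scale). The line gives the median gene and the band the middle 50% of genes in each of 10 classes by length, from 1.21 in the shortest to -1.34 in the longest, and the blue points are the 8 genes, from Socs1 at 0.68 to Socs7 at -1.68.

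For each of the 8 genes the genes with the most similar pattern over the 8 mice were sought among 13297 genes with mean counts of 50 or more, as a description only, since all points share the libraries and their length trends. Socs1 was closest to Usp18 (r = 0.991, rho = 1.00) and Ist1 (r = 0.982), and without the 2 mice farthest from the median of Socs1 r with Usp18 was 0.977. Socs3 was closest to Bcl3 (r = 0.973, rho = 0.976, and r = 0.925 without the 2 farthest mice). Cish was closest to Cacfd1 (r = 0.969) and Rab40c (r = 0.957), which remained at 0.97 and 0.98 without the 2 farthest mice. Socs7 was closest to Icmt (r = 0.998) and Rab11fip3 (r = 0.997). For Socs2 the nearest gene, LOC100043918 (r = 0.894), rested on 2 mice, since r was -0.593 without them. Socs4 was closest to Ldb1 (r = 0.995), Socs5 to Cit (r = 0.991), and Socs6 to AI467606 and Kcnab1 (both r = 0.972).

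The genes around the SOCS proteins were examined by role. Every gene named in the following with an unadjusted p under 0.05 had a Benjamini-Hochberg adjusted p of 0.498 in edgeR, so none passed, and 5.91% of all genes had such a p with a fold change below 0 and 2.45% with one above 0. Among 15 of the 16 cytokines that induce SOCS genes with enough counts, 6 had such a p below 0 and 0 above, and the median log2 fold change was -1.06. Without control replicate 2, 5 had such a p, all below 0, and the median was -0.34. Of all genes 767 of 17058 had such a p below 0 without that mouse. Il10, the anti-inflammatory cytokine that signals through STAT3, had a mean FPKM of 1.5 ± 0.301 (SD, n = 4) in Cre and 3.22 ± 1.29 (SD, n = 4) in control mice. For Csf3, which encodes G-CSF, the means were 0.458 ± 0.3 and 1.11 ± 0.244 (SD, n = 4), on 5 to 36 counts per mouse. Osm, which encodes the gp130 cytokine oncostatin M, was at 1.07 ± 0.398 and 2.55 ± 1.24, and Il15 at 16.2 ± 2.9 and 28.3 ± 10.6. Il6, named after its values were seen because its receptor is the main target of SOCS3, was at 3.02 ± 1.55 and 9.76 ± 7.66, with ranges of 1.72 to 5.11 and 3.64 to 21 that overlap. Without control replicate 2 the log2 fold changes of Il10, Osm, Il15 and Il6 were -0.89, -0.92, -0.62 and -1.05, against -1.34, -1.5, -1.06 and -2.01 with it, while that of Csf3 was -1.38 against -1.42.

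The receptor genes were read next. Of 7 receptor genes of the IL-6, leptin and G-CSF kind, 0 had an unadjusted p under 0.05. Their median log2 fold change was 0.17, which was 0.05 without control replicate 2 and 0.11 without Cre replicate 2. The count was 1, below 0, without control replicate 2, where 767 of 17058 genes had such a p below 0. It was also 1, below 0, without Cre replicate 4, where 698 of 17022 genes had one. The G-CSF receptor gene Csf3r was at -0.51 (SE 0.281), and at -0.65 without control replicate 2. The gp130 gene Il6st was at 0.38 (SE 0.331), and at 0.12 without that mouse. Of 9 interferon and gamma-chain cytokine receptor genes 3 had an unadjusted p under 0.05, all below 0 and all with TMM-scaled CPM that did not overlap between groups, as had 3.27% of all genes in this direction. These were Il7r at -0.69 (SE 0.193), Il13ra1, an IL-13 receptor chain, at -0.51 (SE 0.172) and Ifngr2, a chain of the gamma interferon receptor, at -0.33 (SE 0.144). Without control replicate 2 these 3 were at -0.65, -0.37 and -0.22. Among 6 of the 7 growth hormone, prolactin, erythropoietin and beta-common receptor genes with enough counts, 0 had such a p, and the growth hormone receptor gene Ghr, whose signalling SOCS2 restrains, was at -0.04. Of the 8 receptor tyrosine kinase and adaptor genes 1 had such a p, Irs1, an adaptor of the insulin receptor, at 0.59 (SE 0.251), with 0.39 without control replicate 2 and 0.15 with the length trend removed. Without control replicate 1 the count was 3 and without control replicate 2 it was 2, all above 0. Of all genes 546 of 17010 and 544 of 17058 had such a p above 0 in these settings. The count was 0 without control replicate 3 or Cre replicates 1, 3 or 4. The median of the list was 0.40 with all mice and 0.21 without control replicate 2. The EGF receptor gene Egfr was at 0.37 (SE 0.191), with 0.22 without control replicate 2 and 0.08 with the length trend removed.

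Within the pathway, 1 of 11 JAK and STAT genes had an unadjusted p under 0.05, Stat4, which transduces IL-12 signals in lymphocytes, at -0.66 (SE 0.273) on 27 to 62 counts per mouse. Without control replicate 2 Stat4 was at -0.55. The count was 0 without control replicate 2, 3 or 4 or Cre replicate 1 or 3. With the length trend removed it was 3, all below 0, where 872 of 17124 genes had such a p below 0. The median of the list was 0.09 with all mice and -0.14 without control replicate 2. It was -0.03 without Cre replicate 4 and 0.21 without control replicate 1. The kinase gene Jak2 was at -0.18 (SE 0.167), and at -0.27 without control replicate 2. Of 10 other inhibitors of the pathway 1 had such a p, Usp18, which limits type I interferon signalling, at -0.75 (SE 0.299). That count was 0 without control replicate 2 or 3 or Cre replicate 1, 2 or 3. It was 2, both below 0, without control replicate 4, where 1683 of 17012 genes had such a p below 0. Ptpn2, a phosphatase of JAKs and STATs, was at -0.48 (SE 0.234). Without control replicate 2 Usp18 was at -0.51 and Ptpn2 at -0.19. The 6 partners of the SOCS box in the ubiquitin ligase had a median of -0.52, and 0 had such a p. The median was -0.17 without control replicate 2, and 3 and 4 of the genes had such a p, below 0, without control replicates 1 and 4. Of all genes 1859 of 17010 had such a p below 0 without control replicate 1, and 1683 of 17012 without control replicate 4. Elongin C and elongin B genes Eloc and Elob were at -0.68 and -0.62, and without control replicate 2 they were at -0.23 and -0.24.

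STAT target genes other than SOCS genes were read in the same way. Of 12 STAT3 targets 3 had an unadjusted p under 0.05, all below 0, with a median of -0.21, which was -0.33 without Cre replicate 4. Timp1, an inhibitor of metalloproteinases, was at -1.36 (SE 0.371), Lrg1 at -0.70 (SE 0.214) and Cebpd, a transcription factor of the acute phase response, at -0.73 (SE 0.307). Without control replicate 2 they were at -1.04, -0.82 and -0.46. Bcl3, the gene with the pattern nearest to Socs3, was at -0.49 (SE 0.246). Of 9 STAT5 targets 1 had such a p below 0, Osm, and 1 above, Igfals, which carries IGF1 in blood, at 0.58 (SE 0.219), with a median of 0.03, which was -0.03 without control replicate 2 and -0.04 without Cre replicate 4.

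**Figure D4:**
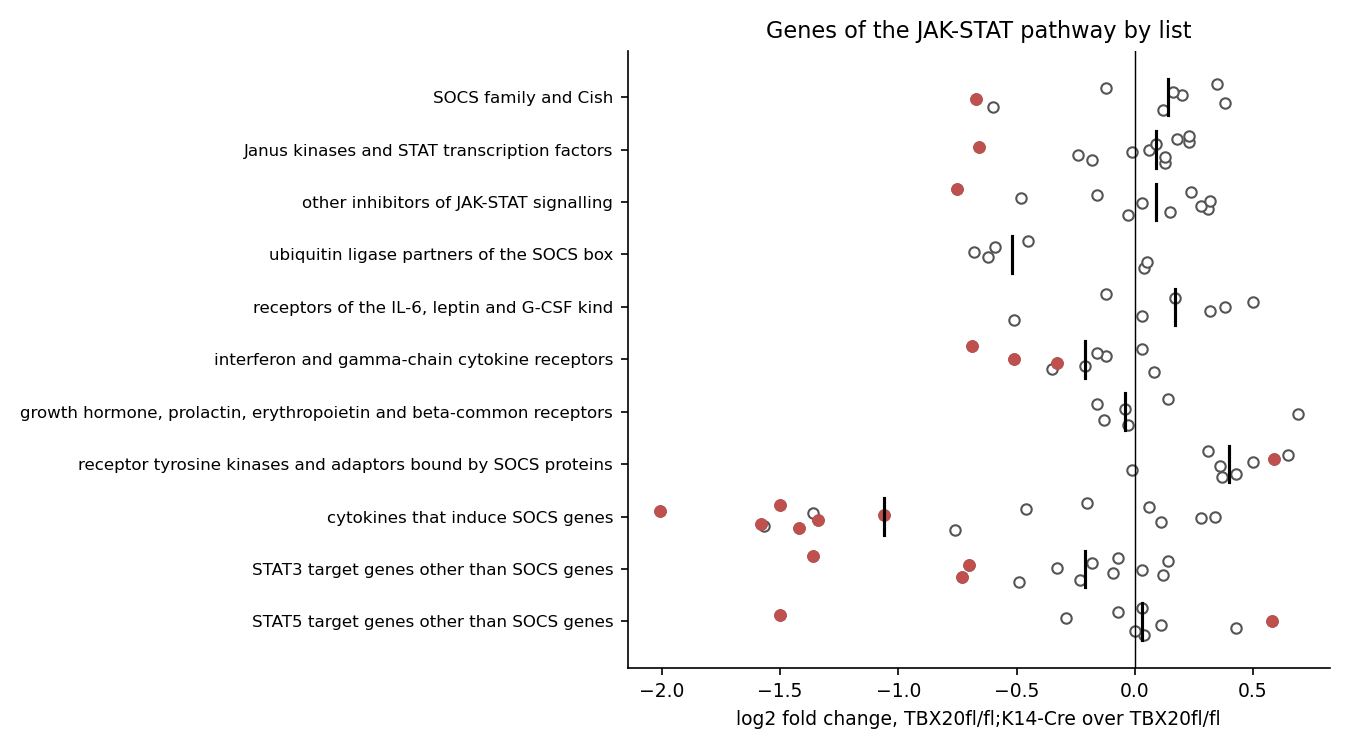
Log2 fold change of Cre over control mice in edgeR (horizontal axis) for each gene of 11 lists around the JAK-STAT pathway, with black bars at the list medians. Filled red points had an unadjusted p under 0.05 and open points did not, and no gene was called after adjustment. The median of the cytokines lies at -1.06 and that of the SOCS family and Cish at 0.14, and without control replicate 2, which the plot includes, they were at -0.34 and 0.03.

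The deposited coordinates, on GRCm38, do not always follow the gene model. Socs1 (gene ID 12703) is listed at chr16:10783808-10796539 on the plus strand, whereas RefSeq ends it at 10785536 and GENCODE places it on the minus strand, and the listed span also covers exons of Tnp2, Prm3 and Prm2 and 208 exon bases of Prm1. The listed span of Socs4 runs past its RefSeq end, 47296102, over 1012 exon bases of Gm9502 and 254 of Mapk1ip1l. Socs3 (12702) is listed at chr11:117966079-117973506, past its RefSeq end at 117970336, and also on the plus strand against minus in GENCODE. Socs2 (216233) is at chr10:95383903-95417321, Socs4 (67296) at chr14:47277143-47298519, Socs5 (56468) at chr17:87107278-87137647, Socs6 (54607) at chr18:88865169-88894364, Socs7 (192157) at chr11:97362292-97398542 and Cish (12700) at chr9:107293010-107302784. Socs1, Socs3, Socs5 and Socs7 shared none of their 50-base stretches with transcripts of other genes, while Socs2 shared 4.58% with 127 genes and Socs4 0.306%.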

How the data were processed

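RNA from cheek skin was sequenced by the authors as single-end 50-base reads on a DNBSEQ instrument, filtered with SOAPnuke (a base quality setting of 15, at most 0.2 of bases below it and at most 0.05 unread bases) and aligned with HISAT. The program that counted reads and its use of strand are not given in the sources used here. The authors deposited estimated counts (expected counts), which are not normalized and of which 69.0% of those above 0 are not whole, and FPKM values, which the authors scaled by transcript length and library. TPM values, counts divided by a size factor, group means and 17 comparisons with fold changes and p-values were also deposited and were not used.

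Counts were rounded and the 17124 genes with a sum of 10 or more were kept. The genotypes were compared by edgeR (version 4.0.16, R version 4.3.3) with its quasi-likelihood test after TMM scaling, without covariates. FPKM was compared with limma 3.58.1 on log2(FPKM + 1) in the 15970 genes whose mean reached 0.1, and for each gene by an exact permutation test, two-sided, over 70 assignments. Standard errors (SE) are the log2 fold change over the root of the F statistic. P-values were adjusted over all genes tested by the Benjamini-Hochberg method. Transcript lengths were derived from deposited counts and FPKM. Alternatives were other scalings, filters and tests (DESeq2 1.42.0), a skeletal muscle covariate, a length trend as an offset, a block for the replicate number, and the omission of each mouse in turn. Overlap of groups in TMM-scaled CPM was added after the data were seen. Nothing states what the replicate numbers share beyond being numbered alike. Deviations from the group means correlated at 0.323, 0.275, 0.176 and 0.108 for the same numbers and at -0.0672 on average for the other 12 pairs, which ranged from -0.407 to 0.32. The numbers were taken to pair the mice because all 4 exceeded 0.1, although 3 of the 4 lie within the range of the other pairs. P-values set the difference between the genotypes against the spread between these mice.

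The 8 genes and the gene lists were chosen with earlier results of these data known. From each list up to 4 genes with the smallest p are named (1 gene and 1 list of target genes are not reported here), a few others for their role after their values were seen, and for each member up to 2 genes with the highest correlation of log2 CPM (prior count 2). The tests were tested on simulated data. Total counts of 16056282 to 19880654 per mouse set the precision, and floors cover counting error only. Markers of other cells were read in the same fit: of 7 T cell markers tested 1 had an unadjusted p under 0.05 below 0 and of 6 adipocyte markers 1, of 6 fibroblast markers 2 above 0, and of keratinocyte (8), endothelial (6) and skeletal muscle (8) markers 0. Single mice moved these counts. The fibroblast count was 0 without Cre replicate 3, and the T cell and adipocyte counts were 0 without control replicate 2. The keratinocyte, endothelial and muscle counts were 1 each without control replicate 1. The keratinocyte markers were present in every mouse, with a summed FPKM of 3669 to 5169.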

Additional observations from a re-analysis of the deposited data

Results flagged for a closer look

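Of 16 groups of 4 mice examined, 8 genes in each genotype, 2 held a mouse far from the other 3 by Dixon's test at 95%, where chance gives 0.8. Socs3 in control replicate 1 had an FPKM of 35.6, and the gap to the next mouse was 0.844 of the range of its group. Without that mouse the log2 fold change of Socs3 was -0.52 and its unadjusted p 0.128, and the Benjamini-Hochberg adjusted p from edgeR 0.383. Socs4 in control replicate 2 had an FPKM of 3.31, with a gap of 0.832 of the range. Without that mouse the log2 fold change of Socs4 was 0.12.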

How the results depend on the processing

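None of the 8 genes passed the adjusted threshold in any setting. Of 144 recomputed log2 fold changes 140 kept their direction and side of the threshold, and of 88 limma differences in log2 FPKM 86 did. Those that changed sign were Socs5 at -0.035 with the length trend removed and -0.035 with the length trend and the replicate block together, Socs6 at 0.043 with scaling to the total count, Cish at -0.0027 without control replicate 2, and the limma difference of Socs6, at -0.004 without Cre replicate 4 and -0.041 without control replicate 2 (from -0.041 to 0.086 over the mice left out in turn). Over all genes edgeR called 0, with 1431 at an unadjusted p under 0.05, whereas DESeq2 called 10 and, without Cook's cutoff and independent filtering, 11. None of these was one of the 8 genes, and the cause was not tested. limma called 0, with 1046 at an unadjusted p under 0.05.

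With the replicate number as a block, pairing the mice, edgeR called 0 genes and had 1723 at an unadjusted p under 0.05, and it changed no call. Under the block the log2 fold change was -0.73 for Socs3, -0.57 for Socs1, 0.42 for Socs2 and 0.49 for Socs7. With 1 mouse left out in turn, Socs3 ranged from -0.93 to -0.48, Socs1 from -0.77 to -0.41, Socs2 from 0.20 to 0.51, Socs7 from 0.08 to 0.55 and Cish from -0.0027 to 0.49. With 4 mice per genotype and 1 control mouse that stood apart, the interval of 95% ran from 0.756-fold to 1.13-fold for Socs6, the narrowest of the 8, and from 0.761-fold to 2.14-fold for Socs7, the widest. These intervals hold for each gene alone.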
